A study of Mus musculus with 4 samples.

Results

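Nuclear long non-coding RNAs and small nucleolar RNA (snoRNA) host genes were followed in whole mouse islets held at low or high glucose. The members were *Malat1*, *Neat1* and *Miat*, which are nuclear lncRNAs, and *Gas5*, *Snhg1*, *Snhg3*, *Snhg6*, *Snhg8*, *Snhg11* and *Snhg12*, which are non-coding host genes of snoRNAs. They were picked by name, and where a name had several entries the entry with the highest mean over the 4 libraries was kept. All 10 names were found among the 24013 gene names of the table. Islets, the clusters of beta, alpha, delta and other endocrine cells of the pancreas, came from wild-type male C57bl6 mice of 3 months and were pooled. Every group spent the night in medium with 11 mM glucose and 2 h in medium with 2.8 mM, and islets were then exposed either to low glucose (2.8 mM) or to high glucose (16.8 mM). The exposure lasted 12 h in both groups by the design text and the methods, whereas by the labels it lasted 12 h at high and 2 h at low glucose. There were 2 libraries at each concentration, so p-values measure the spread between libraries of 1 pool of islets and not between animals.

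*Malat1* lies in nuclear speckles, the bodies that store splicing factors, and *Neat1* is the architectural RNA around which paraspeckles form. snoRNAs guide the modification of ribosomal RNA: box C/D snoRNAs guide 2′-O-methylation with fibrillarin, and box H/ACA snoRNAs guide pseudouridylation with dyskerin. In mammals they are mostly cut out of introns, and the spliced RNA of a non-coding host is often unstable, as for *Gas5*, which nonsense-mediated decay removes while it is being translated. In islets the synthesis of ribosomes and proteins, insulin above all, is known to respond to glucose.

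Values are RPKM, reads scaled to transcript length and library depth. The length behind them was the genomic span of a transcript with its introns, so that the level of a host gene with long introns is spread over their length too. Whether reads in introns were counted is not known. Library depth, recovered from the steps of the values, lay between 50801713 and 60709738 reads, and 1 read in a span of 1 kb was worth 0.0165 to 0.0197 RPKM. The summed RPKM of 8 beta cell markers was 20565 and 22913 at 2.8 mM and 40959 and 43730 at 16.8 mM, and 6 of the 8 rose, among them *Ins1* and *Mafa*. The summed RPKM of 6 acinar markers differed between replicates, at 77.9 and 229 at 2.8 mM and 193 and 409 at 16.8 mM, and none of the 6 passed the test at an adjusted p of 0.05. Both same-numbered pairs of libraries were higher at 16.8 mM, however, and with the replicate number as a block all 6 acinar markers passed (adjusted p between 0.0096 and 0.032, limma). None of the 5 alpha, 3 delta, 2 leukocyte and 1 stromal markers tested passed, and the 4 endothelial markers were too low for a test, while *Spp1*, a duct marker, and *Tubb3*, a neuronal marker, rose. The part of either difference in the results for the members was not tested.

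The members differed widely in level. *Neat1* had the highest mean over the 4 libraries, 218 RPKM, and *Malat1* followed with 149 RPKM. *Snhg8* and *Gas5* stood at 13.9 and 13.8 RPKM, and *Snhg1* at 7.39 RPKM. *Snhg3*, *Snhg12*, *Snhg6* and *Snhg11* had means of 4.41, 4.37, 4.08 and 3.64 RPKM, and *Miat* had a mean of 0.0207 RPKM. By the range over all 4 libraries, *Snhg8* and *Gas5* overlapped, as did *Snhg3*, *Snhg12*, *Snhg6* and *Snhg11*, whereas the ranges of *Neat1*, *Malat1*, *Gas5*, *Snhg1* and *Snhg3* followed each other without overlap. Within a concentration the last group separated further: at 2.8 mM *Snhg12* lay above *Snhg6* and *Snhg6* above *Snhg11*, while at 16.8 mM *Snhg3* lay above *Snhg11* and *Snhg11* above *Snhg6*, each without overlap. The order of the hosts also depended on the length used. If every read of an entry is taken as exonic, which was not tested, then per kilobase of annotated exon *Gas5* reached a mean of 51.3 and *Snhg3* of 17.7, on the same depth scale as RPKM, ahead of *Snhg12* at 11.0, *Snhg1* at 8.97 and *Snhg11* at 6.52. For each gene the annotated transcript nearest to the deposited span was used. Exons make up 26.8% of that of *Gas5* and 24.9% of that of *Snhg3*, against 79.4% for *Snhg1*. For *Snhg1*, however, no annotated transcript matched the deposited span of 2840 bases. The nearest one, of 2946 bases with 3 introns, was used, so its 79.4% and 8.97 may not hold for the deposited entry. *Snhg6* and *Snhg8* were not matched by name to the annotation used for exons.

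**Figure D1:**
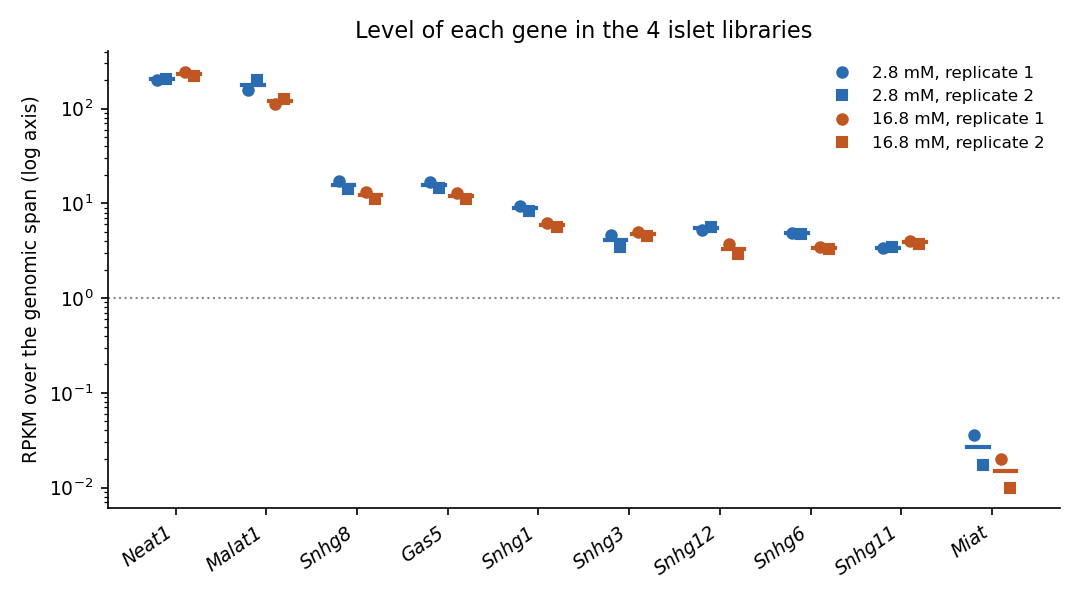
RPKM over the genomic span (log axis) of each gene in the 2 libraries at 2.8 mM (blue) and the 2 at 16.8 mM glucose (orange), with short lines at the group means and a dotted line at 1 RPKM, the minimum mean for a test. *Neat1* and *Malat1* lie above 100 RPKM in every library, and *Miat* lies below 0.04 RPKM.

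Of the 10 members, 9 reached the minimum mean of 1 RPKM for a test, and 4 of these were lower at 16.8 mM (*Malat1*, *Snhg1*, *Snhg6* and *Snhg12*) while 0 were higher (limma on log2(RPKM + 0.5), Benjamini-Hochberg adjustment over 7867 transcripts, threshold 0.05). Over all transcripts tested, 33.4% were called, with 22.8% lower and 10.7% higher. Over the 1091 RefSeq non-coding transcripts among them 32.7% were called, with 21.0% lower and 11.7% higher. *Snhg11* is listed as a RefSeq coding entry and is not among these 1091. The median log2 fold change was -0.38 for the 9 members and -0.11 for all transcripts tested, a description and not a test. The groups did not overlap, with 16.8 mM lower, for 6 of the 9 against 48.3% of all transcripts tested, and with 16.8 mM higher for 2 of the 9 against 22.2%. Because whole islets were sequenced, fewer cells of a type and less RNA per cell cannot be told apart in any of these values. The scale of the libraries moved the balance of calls: 31.9% of called transcripts were higher with the deposited scale, and 44.1% after median centring of each library. There, 4 members were lower (*Gas5*, *Snhg1*, *Snhg6* and *Snhg12*) and *Snhg11* was higher. Without replicate 2 at 16.8 mM, 2 members passed in place of 4.

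**Figure D2:**
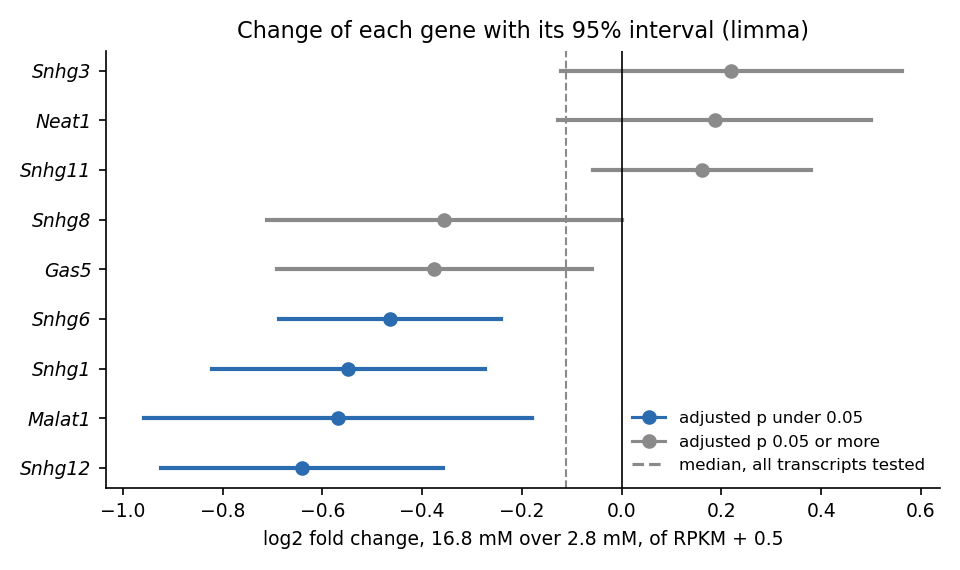
Log2 fold change of RPKM + 0.5 at 16.8 mM over 2.8 mM glucose for the 9 genes tested, with the 95% interval from limma; blue marks an adjusted p under 0.05. *Snhg12*, *Malat1*, *Snhg1* and *Snhg6* lie below 0 with intervals left of it, and the intervals of *Snhg11*, *Neat1* and *Snhg3* include 0.

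*Malat1*, which binds splicing factors in nuclear speckles, is an unspliced RNA of 6982 bases at chr19:5795690-5802671 on the minus strand of NCBI build 37 (mm9). It measured 155 and 200 RPKM in the 2.8 mM libraries and 112 and 126 RPKM in the 16.8 mM libraries, from 63459, 72724, 47571 and 44646 reads in that order. Both high-glucose libraries lay below both low-glucose libraries, and the 2 libraries at 2.8 mM differed from each other by more than those at 16.8 mM. The mean fell from 178 ± 31.8 to 119 ± 9.65 RPKM (SD, n = 2), and the log2 fold change was -0.57 (95% interval -0.96 to -0.18, adjusted p = 0.036, limma). This call was the least firm of the 4. It was lost without replicate 2 at 2.8 mM (log2 fold change -0.39, adjusted p = 0.063), without replicate 1 or 2 at 16.8 mM (adjusted p = 0.169 and 0.079) and after median centring (-0.48, adjusted p = 0.117), with the scale taken without the 10 most abundant transcripts (adjusted p = 0.117) or with no minimum level (adjusted p = 0.122), always with the same sign.

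*Neat1* lies beside *Malat1* on the same strand of chromosome 19, with the gene annotated at chr19:5824708-5845478. The deposited entry covered 3177 bases, close to the short isoform of 3170 bases at the 5′ end of the gene, and this stretch belongs to the short and the long isoform alike, so the isoforms could not be told apart. It measured 201 and 208 RPKM at 2.8 mM and 246 and 219 RPKM at 16.8 mM, so that the high-glucose libraries lay above the low-glucose ones. The log2 fold change of 0.19 (95% interval -0.13 to 0.50) did not pass the test (adjusted p = 0.308, limma). The ratio of *Neat1* to *Malat1* RPKM within a library was 1.29 and 1.04 at 2.8 mM and 2.19 and 1.74 at 16.8 mM. A ratio within a library does not depend on its scale.

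*Miat*, a nuclear lncRNA first linked to myocardial infarction and best known from neurons and retina, was close to the limit of the libraries. Over its annotated span of 15721 bases at chr5:112642248-112657968 (mm9), its values amounted to 33 and 14 reads in the low-glucose libraries and to 19 and 8 in the high-glucose ones. The groups overlapped, and no test was made because the mean lay under 1 RPKM. The neighbours *Cryba4* and 1700028D13Rik were at or below 0.026 RPKM in every library.

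The genes whose 4 values followed *Malat1* most closely, among the 961 genes averaging 10 RPKM or more, were Mir5710, Mir6340 and *Actb*, at Euclidean distances of 0.105, 0.116 and 0.204 over the 4 libraries on the log2 scale. Mir6340 measured 29.3 and 34.7 RPKM at 2.8 mM and 21.5 and 22.9 RPKM at 16.8 mM. *Actb*, cytoplasmic beta-actin, measured 84.0 and 96.4 RPKM against 65.6 and 69.0 RPKM. In each of them, as in *Malat1*, replicate 2 at 2.8 mM was the highest of the 4 libraries, a likeness that goes with choosing them by these values. With 4 values a pattern holds little detail.

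The 7 snoRNA host genes were followed next. The start of a host is shown here because *Gas5* and other hosts are known to begin, like the mRNAs of ribosomal proteins, with a C and a run of pyrimidines. RefSeq windows of 300 bases (250 before the start and 50 from it, GRCm38.p6) were at hand for 8 of the 10 members, among them 6 hosts. *Neat1* and *Snhg6* had no entry. Below are the 30 bases before the start and the 30 from it, 5′ to 3′ on the strand of the gene, with capitals on a C at most 3 bases from the start that is followed by at least 4 bases C or T.
Gas5 (chr1:161035136-161035195, plus): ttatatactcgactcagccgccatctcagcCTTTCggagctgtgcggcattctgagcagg
Snhg8 (chr3:123508307-123508366, minus): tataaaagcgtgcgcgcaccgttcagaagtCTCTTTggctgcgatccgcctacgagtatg
Snhg12 (chr4:132308648-132308707, plus): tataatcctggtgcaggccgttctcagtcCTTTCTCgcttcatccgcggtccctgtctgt
Snhg3 (chr4:132353657-132353716, minus): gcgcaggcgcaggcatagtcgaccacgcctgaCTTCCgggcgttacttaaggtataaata
Snhg1 (chr19:8723457-8723516, plus): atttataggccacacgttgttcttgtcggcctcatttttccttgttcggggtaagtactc
Snhg11 (chr2:158375683-158375742, plus): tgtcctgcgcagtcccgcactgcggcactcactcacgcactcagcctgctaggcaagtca

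Such a start was present in 5 of the 9 windows of members, 1 each of *Gas5*, *Snhg8*, *Snhg12*, *Snhg3* and *Miat*, against 11.5% of all 32851 windows searched on the coding strand. Windows of 1 chromosome were left out of the search, also for the shares that follow. *Gas5* has 2 windows, and the other, which starts upstream, holds none and is not shown. By gene, 23 of 56 ribosomal protein genes held such a start. The definition was set after these sequences had been seen. Of the motifs searched on both strands of the whole windows, TGACGTCA was found 46 bases before the *Gas5* start and in 1.79% of all windows. TATAAA, which occurred on either strand in 13.6% of all windows, began 30 bases before the *Snhg8* start and 22 bases after that of *Snhg3*. At *Snhg1* the match was on the opposite strand, and reads TTTATA from 29 bases before the start. CACGTG and TGATGNAA, present in 7.15% and 3.97% of all windows, were in none of the 9 windows of members. These are matches of letters only.

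*Gas5*, a growth-arrest gene and host of box C/D snoRNAs, lies at chr1:162964553-162968670 on the plus strand (mm9). The annotated transcript nearest to its deposited span has 9 introns. *Gas5* measured 16.6 and 14.6 RPKM at 2.8 mM and 12.8 and 11.0 RPKM at 16.8 mM. The high-glucose libraries lay below the low-glucose ones, and replicate 1 was above replicate 2 at either concentration. The log2 fold change was -0.38 (95% interval -0.69 to -0.06) with an adjusted p of 0.068 (limma), just outside the threshold. The call depended on the setting, for *Gas5* was lower with an adjusted p of 0.035 after median centring. *Snhg8*, host of the H/ACA snoRNA Snora24, measured 17.3 and 14.02 RPKM at 2.8 mM against 13.2 and 11.0 RPKM at 16.8 mM. Its log2 fold change was -0.36 (95% interval -0.71 to 0.00, adjusted p = 0.110, limma). Without replicate 2 at 2.8 mM, *Gas5* and *Snhg8* both passed (adjusted p = 0.019 and 0.011).

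*Snhg12* carries 4 snoRNA entries and lies with 3 introns at chr4:131864593-131866939 on the plus strand (mm9). It measured 5.29 and 5.57 RPKM at 2.8 mM and 3.68 and 2.95 RPKM at 16.8 mM, without overlap. The mean fell from 5.43 ± 0.201 to 3.32 ± 0.513 RPKM (SD, n = 2), with a log2 fold change of -0.64 (95% interval -0.92 to -0.36, adjusted p = 0.008, limma). Of all transcripts tested, 5.39% had a lower log2 fold change. The call was lost only where no minimum level was set (adjusted p = 0.052), among the fits run at the threshold of 0.05.

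*Snhg1*, known as the host of U22 and its neighbouring snoRNAs, lies at chr19:8797986-8800932 on the plus strand (mm9). It measured 9.40 and 8.34 RPKM at 2.8 mM and 6.20 and 5.62 RPKM at 16.8 mM. The level fell by 0.55 on the log2 scale (95% interval -0.82 to -0.27, adjusted p = 0.013, limma), and all values at 16.8 mM lay below those at 2.8 mM. Without replicate 2 at 16.8 mM the adjusted p was 0.064. *Snhg6*, host of Snord87, measured 4.92 and 4.71 RPKM at 2.8 mM and 3.43 and 3.27 RPKM at 16.8 mM, the closest agreement between replicates at 16.8 mM among the hosts that fell. Its log2 fold change was -0.46 (95% interval -0.69 to -0.24, adjusted p = 0.011, limma), and it kept its call in each fit run at the threshold of 0.05, with adjusted p up to 0.047.

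The remaining hosts did not pass in either direction. *Snhg3*, host of the U17 snoRNAs that act in the cutting of ribosomal RNA, measured 4.66 and 3.45 RPKM at 2.8 mM and 5.04 and 4.49 RPKM at 16.8 mM. The groups overlapped through replicate 1 at 2.8 mM, and the log2 fold change was 0.22 (95% interval -0.12 to 0.56, adjusted p = 0.274, limma). Without that library it was 0.41 (adjusted p = 0.045). *Snhg11*, a host known for its level in neurons, measured 3.37 and 3.45 RPKM at 2.8 mM and 3.99 and 3.75 RPKM at 16.8 mM, higher in both high-glucose libraries. Its log2 fold change of 0.16 (95% interval -0.06 to 0.38) had an adjusted p of 0.213 (limma) and one of 0.031 after median centring.

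Ratios of hosts within a library set these changes side by side without the scale of the library. *Snhg12* over *Snhg3* was 1.13 and 1.62 at 2.8 mM and 0.730 and 0.658 at 16.8 mM. *Snhg1* over *Snhg11* was 2.79 and 2.42 at 2.8 mM and 1.55 and 1.50 at 16.8 mM. Both pairs were chosen after the values had been seen, each with a host that fell over one that did not, so the direction of the ratios follows from that choice.

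The snoRNAs themselves could be followed in part. The table held 8 snoRNA entries inside 5 of the hosts, and these reads may also have been counted in the host, whose length was its whole span. Whether they were was not tested. The library kit, a poly(A) kit that keeps no strand, is not made for short snoRNAs, and reads of a snoRNA cannot be told from reads of unspliced host RNA. The sequences below are read from NCBI build 37 and stand for both classes. Capitals are matches of letters only. In a box C/D snoRNA they mark TGATGA near the start, for the C box, and the last CTGA, for the D box. In an H/ACA snoRNA they mark ACA near the end. The same search found no such TGATGA in Snord22 and no such ACA in Snora44, which are not shown.
Snord47 (in *Gas5*, chr1:162968213-162968289, plus): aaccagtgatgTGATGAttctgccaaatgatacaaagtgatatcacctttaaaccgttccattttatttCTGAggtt
Snord99 (in *Snhg12*, chr4:131866606-131866679, plus): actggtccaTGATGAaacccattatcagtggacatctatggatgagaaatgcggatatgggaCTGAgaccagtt
Snora61 (in *Snhg12*, chr4:131866155-131866284, plus): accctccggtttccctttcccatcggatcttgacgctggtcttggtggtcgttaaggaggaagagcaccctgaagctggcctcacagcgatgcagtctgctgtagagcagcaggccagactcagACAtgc

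Of the 8 snoRNA entries 3 were lower at 16.8 mM and 0 were higher, against 22.8% lower and 10.7% higher of all transcripts tested, with a median log2 fold change of -0.43. In 6 of the 8 the groups did not overlap with 16.8 mM lower, against 48.3% of all transcripts tested. Snord47 in *Gas5* measured 48.6 and 52.9 RPKM at 2.8 mM and 34.2 and 31.7 RPKM at 16.8 mM (log2 fold change -0.62, adjusted p = 0.012, limma), though its host did not pass. Snord87 in *Snhg6* measured 21.3 and 18.2 RPKM against 12.0 and 11.1 RPKM (log2 fold change -0.75, adjusted p = 0.006, limma). In *Snhg12*, Snora61 measured 14.9 and 14.5 RPKM against 8.91 and 10.6 RPKM (log2 fold change -0.57, adjusted p = 0.016, limma), whereas Snord99 measured 3.42 and 5.25 RPKM against 4.49 and 3.94 RPKM and overlapped. Snord99 rested on 11 to 15 rebuilt reads in a library and Snora61 on 33 to 53. The spans used to rebuild them were 56 bases for Snord99, 62 for Snora61 and 65 for Snord47. The sequences printed above have 74, 130 and 77 bases in that order. The measured stretch may therefore differ from the printed one, or the rebuilt reads may be off. Snord22 in *Snhg1* (log2 fold change -0.37, adjusted p = 0.072, limma), Snora24 in *Snhg8* (-0.32, 0.212), Snora16a (-0.42, 0.122) and Snora44 (-0.45, 0.131) in *Snhg12* did not pass. Without replicate 1 at 2.8 mM, 6 of the 8 entries passed.

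**Figure D3:**
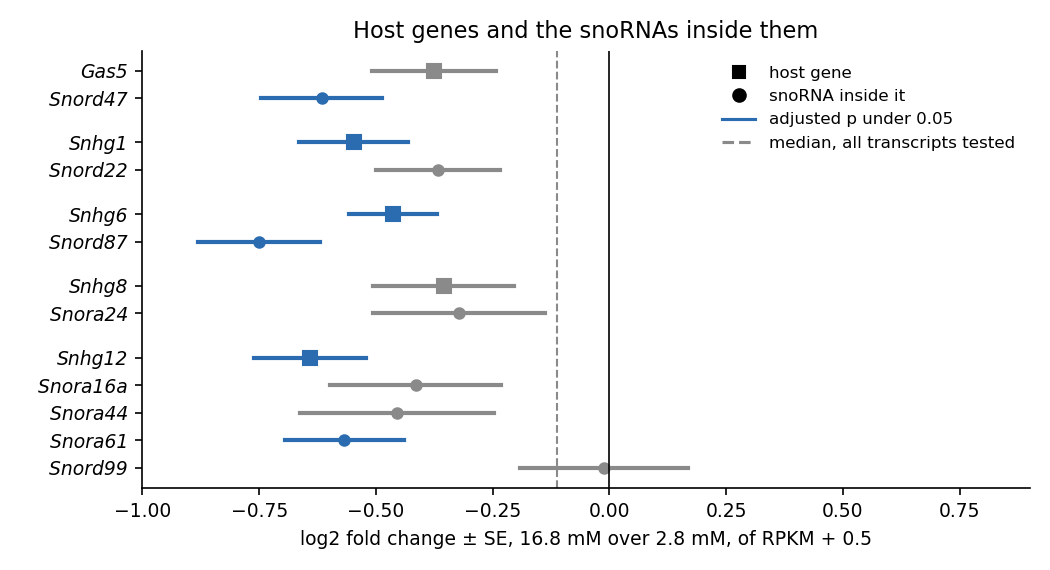
Log2 fold change of RPKM + 0.5 at 16.8 mM over 2.8 mM, with its standard error, for 5 host genes (squares) and the 8 snoRNA entries inside them (circles); blue marks an adjusted p under 0.05 and the dashed line the median of all transcripts tested. Every entry except Snord99 lies left of the dashed line, and host and snoRNA may share reads.

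Reads in these entries came to between 5.06% and 6.88% of the number of *Gas5* reads and between 19.9% and 25.0% of that of *Snhg12*. The spans behind the rebuilt reads of Snord47, Snora61 and Snord99 were shorter than their printed sequences, so these shares may not hold. When they were subtracted, as if the host held them all, the log2 ratio of mean depth-scaled reads was -0.37 for *Gas5* against -0.39 with them, and -0.79 for *Snhg12* against -0.71 with them. For *Snhg1*, *Snhg6* and *Snhg8* it was -0.61, -0.48 and -0.38 without the entries, against -0.59, -0.52 and -0.37 with them. Under that assumption the differences of the hosts were as large or nearly as large without the snoRNA entries.

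The genes beside or over the members were measured in the same way. *Slc3a2*, the heavy chain of amino acid transporters, lies next to *Snhg1* and fell further than it, from 66.2 and 62.8 RPKM to 22.6 and 20.7 RPKM (log2 fold change -1.55, adjusted p = 0.00046, limma). *Wdr74*, a ribosome assembly factor on the other side of *Snhg1*, measured 4.36 and 3.85 RPKM against 3.17 and 2.88 RPKM and also fell (log2 fold change -0.38, adjusted p = 0.029, limma). 9430008C03Rik, known as *Snhg17* and the gene next to *Snhg11*, fell from 2.47 and 2.55 RPKM to 1.53 and 1.35 RPKM (log2 fold change -0.64, adjusted p = 0.003, limma), beside *Snhg11*, which did not pass. *Tcf24*, beside *Snhg6*, rose from 1.87 and 1.76 RPKM to 2.36 and 3.23 RPKM (log2 fold change 0.50, adjusted p = 0.028, limma). The annotation places *Zbtb37* over *Gas5*, *Mcmdc2* over *Snhg6* and *Rcc1* next to *Snhg3*, and these 3 genes stayed below 0.6 RPKM in every library and were not tested.

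The genes nearest to *Gas5* in pattern were *Irf2bp1*, *Rps14*, a protein of the small ribosomal subunit, and Snord34, which lies in the ribosomal protein gene *Rpl13a*, at distances of 0.027, 0.036 and 0.042 on the log2 scale over the 4 libraries. *Rps14* measured 59.2 and 52.9 RPKM at 2.8 mM and 47.3 and 41.0 RPKM at 16.8 mM. Snord34 measured 251 and 222 RPKM against 189 and 168 RPKM. Like *Gas5*, none of the 3 passed the test (adjusted p between 0.064 and 0.102, limma). A like result goes with choosing them by the same 4 values.

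Related genes were taken from lists of names. Among other non-coding snoRNA hosts, 11 were tested and 6 fell while 0 rose, with a median log2 fold change of -0.32. Of all RefSeq non-coding transcripts tested, 21.0% were lower and 11.7% higher, and *Zfas1*, listed as a RefSeq coding entry, is not among them. *Snhg5* fell from a mean of 7.02 to 3.45 RPKM (log2 fold change -0.93, adjusted p = 0.002, limma) and *Zfas1*, listed as 1500012F01Rik, from 6.45 to 3.56 RPKM (-0.78, 0.003). *Snhg4*, *Snhg7*, *Snhg20*, *Dancr* and *Snhg14* were tested and did not pass. The list as first written held 13 tested names, 6 lower and 1 higher, but 4 of its names are not non-coding snoRNA hosts and were left out after their values had been seen, among them 2010111I01Rik, the one that was higher.

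Protein-coding snoRNA hosts are largely genes of ribosomal proteins, translation factors and chaperones. Of 38 tested, 12 fell (31.6%) and 0 rose, against 22.8% lower and 10.7% higher of all transcripts tested, with a median log2 fold change of -0.33. *Hspa8*, the constitutive Hsp70 chaperone, fell from a mean of 577 to 221 RPKM (log2 fold change -1.38, adjusted p = 0.001, limma), and *Hspa9*, its mitochondrial relative, from 32.4 to 14.4 RPKM (-1.14, 0.001). The proteins that bind and assemble snoRNAs had 3 lower and 0 higher of 10 tested, with a median of -0.30. These 3 were *Nop58*, a core protein of box C/D particles, and *Nhp2* and *Gar1*, core proteins of H/ACA particles. Single libraries decided these counts: 4 or 7 coding hosts passed without replicate 2 or replicate 1 at 16.8 mM and 20 without replicate 2 at 2.8 mM, while 1 snoRNP gene passed without replicate 2 at 16.8 mM or replicate 1 at 2.8 mM and 5 without replicate 2 at 2.8 mM.

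Protein partners of *Neat1* and *Malat1* went in either direction. Over all transcripts tested, 10.7% were higher and 22.8% lower, with a median log2 fold change of -0.11. Of 19 tested paraspeckle proteins, 2 rose (10.5%) and 3 fell (15.8%), with a median of -0.09. *Sfpq*, which paraspeckles need, rose from a mean of 7.35 to 11.1 RPKM (log2 fold change 0.56, adjusted p = 0.011, limma), and *Matr3*, a protein of the nuclear matrix, fell from 5.97 to 4.30 RPKM (-0.43, 0.024). Of 22 tested nuclear speckle genes, 2 rose and 2 fell (9.09% each), with a median of -0.06. The risers were the splicing factors *Srsf3* (5.33 to 9.42 RPKM, log2 fold change 0.77, adjusted p = 0.003, limma) and *Srsf1* (0.41, 0.039), and *Clk1*, a kinase of such factors, fell (-0.40, 0.030). Of 10 tested genes of nonsense-mediated decay, 1 rose (10%) and 2 fell (20%), the latter including *Pnrc2* (log2 fold change -0.58, adjusted p = 0.017, limma). Without replicate 2 at 16.8 mM the numbers that passed dropped to 2 speckle genes and 1 decay gene, and without replicate 2 at 2.8 mM 2 speckle genes passed.

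Of 13 other named lncRNAs tested, 6 rose and 0 fell, against 10.7% higher and 22.8% lower of all transcripts tested, with a median log2 fold change of 0.42. They included *Meg3*, an imprinted lncRNA, which rose from a mean of 24.1 to 33.6 RPKM (log2 fold change 0.47, adjusted p = 0.030, limma). *Rian* and *Mirg* of the same imprinted cluster, *H19*, *Nespas* and *Mir22hg* also rose. *Tug1*, another nuclear lncRNA, did not pass (-0.23, adjusted p = 0.151, limma). The median of this list was the value of *Rpph1*, which did not pass and whose replicates lay far apart. *Rpph1* measured 1.85 and 10.2 RPKM at 2.8 mM and 2.14 and 16.5 RPKM at 16.8 mM. Replicates of *Rmrp* lay far apart too, and *Snhg14* was also counted among the snoRNA hosts above. No difference between lists was tested.

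**Figure D4:**
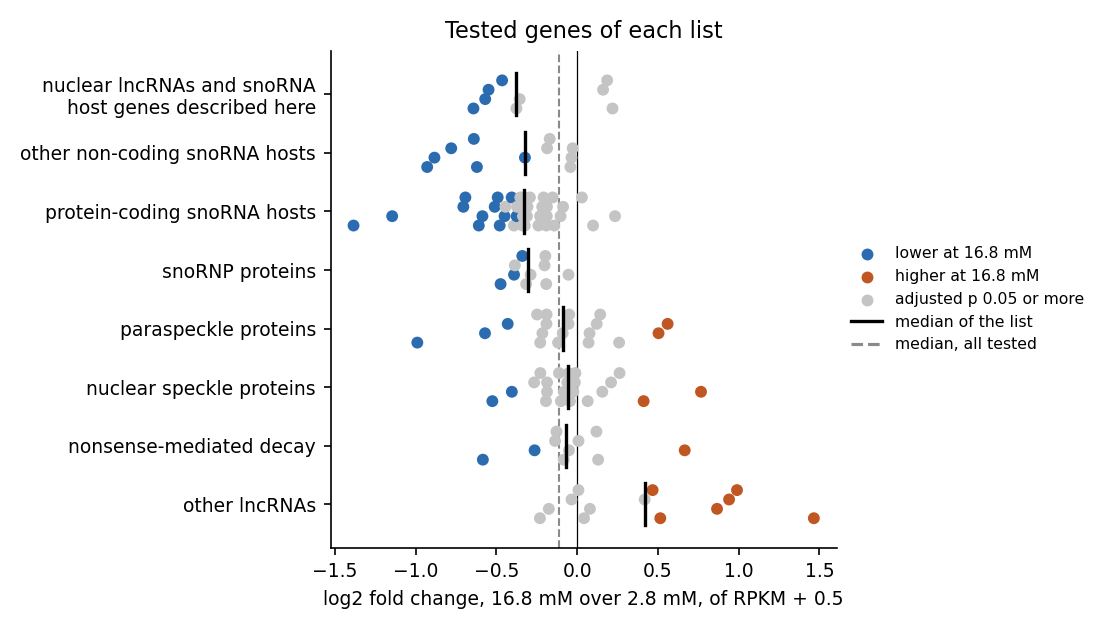
Log2 fold change of RPKM + 0.5 at 16.8 mM over 2.8 mM for each tested gene of 8 lists; blue is lower and orange higher at an adjusted p under 0.05, grey did not pass, black bars are list medians and the dashed line is the median of all transcripts tested. The 3 lists of snoRNA hosts and snoRNP proteins hold no orange point, and the other lncRNAs hold no blue one. The other non-coding snoRNA hosts are drawn without 4 names that were left out after their values had been seen, among them 1 that was higher.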

How the data were processed

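The file deposited by the authors lists RPKM, without counts, for 33923 entries in 4 islet libraries, 2 at each glucose concentration. The methods give 50-base single reads from a TruSeq v2 kit, alignment to mm9 by STAR, exon counts by bedtools and testing by DESeq, but say nothing specific to the islet libraries, and the submitters' processing notes name the same tools. Strand use in the counting is not given in the sources used here. The values were whole reads over the genomic span in 35.5% of 11852 testable entries in all 4 libraries, against 0.320% at a depth set off by 1%. Reads in the text are rebuilt from RPKM, span and depth.

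Identical entries of a gene were merged, leaving 28047 transcripts. Those whose mean reached 1 RPKM, 7867 in number, were tested as log2(RPKM + 0.5) with limma 3.58.1 (R 4.3.3), with a variance trend and Benjamini-Hochberg adjustment. The added 0.5 understates changes of low genes. Groups came from the labels. On simulated data of 4365 transcripts the test found 92.4% of those changed by 1 on the log2 scale (median estimate 0.83), and 5.21% of its calls were wrong. Smaller changes, such as those of the members, were not simulated. Every simulated transcript had the same spread beyond counting noise, the libraries were independent, and 200 transcripts were changed. The rates need not hold for these libraries, in which 2628 of 7867 transcripts were called. Tables and plots were made with Python 3.11.15, pandas 2.3.3, numpy 2.4.6 and matplotlib 3.10.9. Named besides the members were overlapping and nearest genes, snoRNAs inside members, cell type markers, the 2 largest rises and falls per list among genes averaging 5 RPKM or more, and the 3 genes nearest in pattern to *Malat1* and *Gas5*. Other names (for example *Nop58*, *Mirg* and *Tug1*) were chosen after their values were seen. Some genes that this rule covers are not reported here. Members and lists were chosen with earlier results of these data known. Alternatives are given in the closing section.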

Additional observations from a re-analysis of the deposited data

How the results depend on the processing

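No member changed sign in any alternative that gave a value, and *Neat1* did not pass in any of them (log2 fold change 0.10 to 0.28). At a threshold of 0.01 in place of 0.05, 1 member and 1191 transcripts passed. With no minimum level, 2 members, 1 gene of the snoRNP list and 3 paraspeckle genes passed. With at least 1 RPKM required in every library, 5 snoRNP genes and 6 hosted snoRNAs passed. Other scales raised counts over all transcripts, to 3765 of 7867 with median centring, 3730 with quantile normalization and 3621 without the 10 most abundant transcripts, and in the lists: centring on the median gave 24 coding hosts, 8 paraspeckle, 9 nuclear speckle and 5 decay genes, quantile normalization gave 23, 9, 8 and 5, and the scale without the most abundant gave 23 coding hosts, 8 speckle and 5 decay genes. Without the variance trend 20 coding hosts passed. With voom on rebuilt reads 5016 of 12435 transcripts (40.3%), 20 coding hosts, 5 snoRNP genes and 1 decay gene passed.

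The replicate numbers do not come with a shared animal, batch or day, though same-numbered libraries deviated together (correlation 0.31 over transcripts). With the replicate number as a block, 6 members passed, *Gas5* and *Snhg8* being added, along with 4067 transcripts (51.7% of those tested), 25 coding hosts, 8 snoRNP genes, 9 paraspeckle genes and 8 speckle genes. With voom and the block, chosen after seeing the data, 7 members, 6786 of 12435 transcripts, 26 coding hosts, 6 snoRNP genes, 7 speckle genes and 10 other lncRNAs passed.

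Leaving out each library in turn gave 2 to 5 members, 1825 to 2579 transcripts, 4 to 20 coding hosts, 1 to 5 snoRNP genes, 2 to 4 speckle genes, 1 to 3 decay genes and 2 to 6 hosted snoRNAs. The lone library left in a group is assumed there to vary like the other group. The cause of these shifts was not tested. Depth limits *Miat*, at 8 to 33 reads in a library, and Snord99, at 11 to 15. Intervals cover the spread between libraries of 1 pool, and reads without molecular identifiers are not independent molecules.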
